A study of Homo sapiens with 22 samples.

Results

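The first 20 Mb of chromosome 19, most of its short arm, carried more E2F3 and Pol2S5p regions than any other complete stretch of that size in 22Rv1 control cells, and few of the E2F3 regions of cells overexpressing H1-10. The members described here are all deposited ChIP-seq peaks that lie wholly within chr19:1-20000000 on hg19, and were chosen by position. The stretch was proposed because earlier results of these data had shown that E2F3 regions of chromosome 19 were scarce under H1-10 overexpression and that Pol2S5p windows there shrank after E2F3 knockdown, so those differences are given as a description, without a test. Of the 291055 regions in the 8 lists, 10054 lay in the stretch. No region crossed its end at 20 Mb.

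22Rv1 is an established human prostate cancer cell line, and H1-10 is a linker histone variant. ChIP-seq was made for E2F3, for RNA polymerase II phosphorylated on serine 5 (Pol2S5p) and for the histone mark H3K27me3, each in cells labelled Ctrl and in cells labelled H1-10 OE, which overexpress H1-10. A further pair of Pol2S5p libraries was made after a control siRNA, called siCtrl, or one targeting E2F3, called siE2F3, and the peak names, though not the sample labels, place both of these in H1-10 overexpressing cells. Peak names of the E2F3 Ctrl list carry the letters EV. Each group is 1 library with its own peak list, so differences stand without replicates and p-values are not used. Intervals are 95% Wilson intervals for shares and Newcombe intervals for differences of shares, and both cover counting error only. The labels do not say whether the overexpressing cells are a clone or a pool. Read depth is unknown here, and it may differ between the lists. Per the peak names, the H3K27me3 lists and the Pol2S5p lists of Ctrl and H1-10 OE came from one processing folder and the E2F3, siCtrl and siE2F3 lists from another, so overlaps between these sets cross that difference.

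Chromosome 19 is known for its high density of genes, many of them broadly expressed and with CpG-rich promoters. Its short arm carries STK11, a kinase and tumour suppressor, SMARCA4, an ATPase of the SWI/SNF chromatin remodellers, and DNMT1, the maintenance DNA methyltransferase. E2F3 is a transcription factor that binds promoters of genes needed to enter S phase, and is held in check by the RB protein. Serine 5 phosphorylation marks polymerase that has begun transcription near promoters, while H3K27me3 is laid down by Polycomb complex PRC2 at silenced genes. Linker histones bind nucleosomes where DNA enters and leaves, and help to compact chromatin.

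No gene positions on hg19 entered here: regions carry coordinates alone, and the label of a gene-dense arm was checked on the whole chromosome only. In the RefSeq gene table (GRCh38.p14), chromosome 19 held 1451 of 20037 protein-coding genes (7.24%), rank 2 among the chromosomes. Set against this number, the E2F3 Ctrl list held 1.15 regions per protein-coding gene on chromosome 19 and 1.15 over all chromosomes. The E2F3 H1-10 OE list held 0.0221 per gene on chromosome 19 against 0.214 over all chromosomes, the lowest of the 23 chromosomes other than Y, with the next lowest close to it at 0.0244. E2F3 regions of control cells on this chromosome were thus about as frequent per gene as over the genome, while those of H1-10 OE were not.

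All 8 lists had regions in the stretch, from 12 to 2878. E2F3 had 792 regions in Ctrl (3.45% of its list, 3.22 to 3.69%) and 12 in H1-10 OE (0.279%, 0.160 to 0.488%). Pol2S5p had 1452 in Ctrl and 1790 in H1-10 OE, and 2824 in siCtrl and 2878 in siE2F3. H3K27me3 had 52 in Ctrl and 254 in H1-10 OE. The E2F3 lists therefore differed most in number, and the siCtrl and siE2F3 lists least.

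Pol2S5p lists covered the most of the stretch. In Ctrl, E2F3 regions covered 583 kb or 2.92% of the stretch, while those of H1-10 OE covered 4.11 kb or 0.0206%. Pol2S5p regions covered 2025 kb in Ctrl, 1776 kb in H1-10 OE, 5158 kb in siCtrl and 4417 kb in siE2F3, and thus between 8.88 and 25.8% of all bases. For H3K27me3, Ctrl covered 39.6 kb while H1-10 OE covered 174 kb. Bases in all 4 Pol2S5p lists made up 5.46% of the stretch, and bases in none of them 69.9%.

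Median widths overlapped between the targets. In Ctrl the median E2F3 region spanned 623.5 bp (interquartile range 436.75 to 904.5 bp), while that of H1-10 OE spanned 335.5 bp. Pol2S5p regions had medians of 774 bp in Ctrl, 610 bp in H1-10 OE, 783 bp in siCtrl and 716 bp in siE2F3, with long tails: 20, 3, 74 and 58 regions of at least 10 kb. In siCtrl such long regions were 2.62% of the regions in the stretch and 0.960% of those in the rest of the genome. In the rest of chromosome 19 they were 2.22%, so the higher share was not particular to the stretch. For H3K27me3 the median was 634 bp in Ctrl, while H1-10 OE had 458.5 bp.

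The genome was laid out in 142 complete stretches of 20 Mb, counted from the start of each chromosome, to place these numbers. The first 20 Mb of chromosome 19 ranked first in number of regions and in covered length for E2F3 Ctrl and for all 4 Pol2S5p lists. Its 792 E2F3 Ctrl regions compared with a median of 115.5 and a next highest value of 426, and its 2824 siCtrl regions with a median of 403 and a next highest of 1673. In the E2F3 H1-10 OE list its 12 regions lay below the median of 21, at rank 99, tied with 2 others. For H3K27me3 it ranked 6 in Ctrl and 14 in H1-10 OE, with 52 and 254 regions against medians of 4 and 54.5. The plot of regions per stretch shows the E2F3 H1-10 OE list as the one in which the order is turned.

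**Figure D1:**
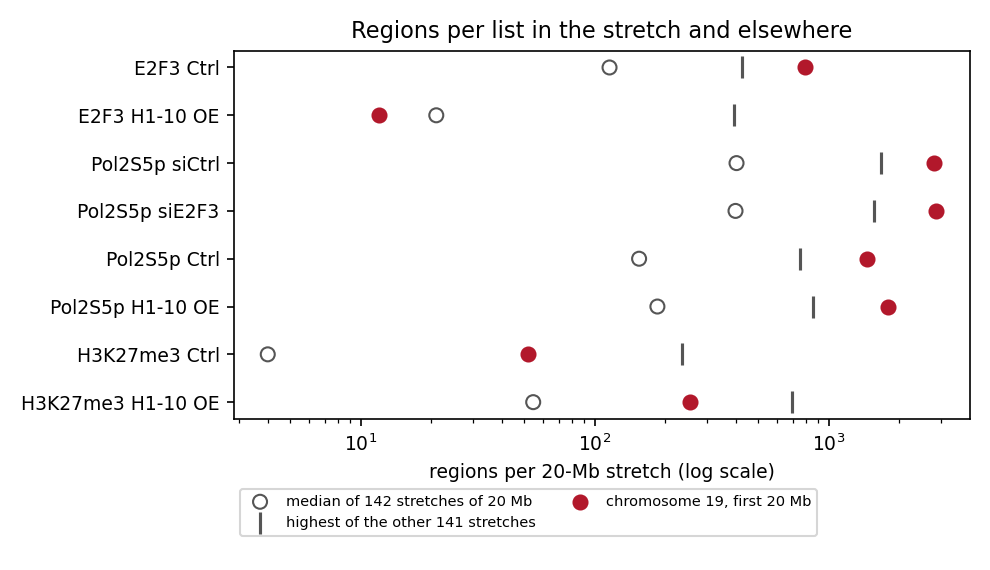
Number of regions per 20-Mb stretch (log scale) in each of the 8 peak lists. Filled points are the first 20 Mb of chromosome 19, open circles the median of the 142 complete stretches and ticks the highest of the other 141 stretches; the filled point exceeds the tick for E2F3 Ctrl and the 4 Pol2S5p lists and lies below the median for E2F3 H1-10 OE.

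Regions were not spread evenly. In 40 windows of 500 kb, E2F3 Ctrl regions covered from 2.01 to 52.9 kb with a median of 13.2 kb, and no window was empty. The richest were the windows from 1 to 1.5 Mb (60 regions), from 0.5 to 1 Mb and from 2 to 2.5 Mb, with 52.9, 42.6 and 30.4 kb. The first 5 Mb held 284 of the 792 regions, the next 5 Mb 125, and those from 10 and from 15 Mb onward 216 and 167. Pol2S5p siCtrl regions covered from 11.4 to 284 kb per window, with the highest value from 2 to 2.5 Mb. The median gap between neighbouring siCtrl regions was 0.796 kb, against 12.1 kb between E2F3 Ctrl regions. Across the 40 windows, covered length of E2F3 Ctrl and Pol2S5p Ctrl had a Spearman correlation of 0.90 and a Pearson correlation of 0.85. For E2F3 Ctrl and Pol2S5p siCtrl these were 0.78 and 0.73. Windows are neighbours on 1 chromosome and share their library, so these values are a description.

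The end of the stretch at 20 Mb lies where regions thin out. From 19 to 20 Mb there were 31 E2F3 Ctrl and 162 siCtrl regions, and from 20 to 21 Mb 5 and 4. The last E2F3 Ctrl region inside, chr19:19976524-19976913, had a fold enrichment of 6.01, and the first outside, chr19:20011527-20012023, a fold of 9.02. Fold enrichments are the authors' values at the summit of a peak, over the background of their caller, and are compared within a list only.

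Comparing the E2F3 lists shows where regions of this factor were called with added H1-10 and where without. Of the 792 Ctrl regions, 780 had no H1-10 OE region (98.5%, 97.4 to 99.1%), where 97.4% of the Ctrl list did so over the whole genome. The share found in Ctrl only was 1.11 points higher than in the rest of the genome, with an interval of -0.0212 to 1.79. By length the lists lay further apart on the arm than in the rest of the genome as a whole. E2F3 H1-10 OE regions covered 0.00706 times the Ctrl length on the arm, and 0.129 times elsewhere. Little H1-10 OE length beside that of Ctrl was also seen in the like stretches compared below. The lists differ in length, and with equal numbers of the strongest peaks the share on the arm was 92.7% and the ratio of covered length 0.0231. All 40 windows held less E2F3 length in H1-10 OE, 29 of them held none, and the highest ratio of H1-10 OE to Ctrl length in a window was 0.0886.

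The other direction differed. All 12 H1-10 OE regions of the stretch overlapped a Ctrl region, so the count found in H1-10 OE only was 0 of 12, with an upper bound of 24.2%. Over the whole genome 85.9% of the H1-10 OE regions had no Ctrl region, and in the rest of the genome 86.2% (85.1 to 87.2%). The difference was -86.2 points, with an interval of -87.2 to -61.9. In the 3 stretches closest to this one in number of siCtrl regions, which held 1673, 1510 and 1502 of them, H1-10 OE had 7, 18 and 19 E2F3 regions and the share found in H1-10 OE only was 57.1, 27.8 and 78.9%. These 3 stretches lie on chromosome 22 (20 to 40 Mb), chromosome 1 (20 to 40 Mb) and chromosome 9 (120 to 140 Mb). E2F3 regions without a Ctrl counterpart, most of the H1-10 OE list, were not found on the arm. The E2F3 Ctrl regions they could meet were denser here than in any other complete stretch, and the part of this density was not tested. The count also rests on an overlap of 1 bp: the H1-10 OE regions are much narrower than their Ctrl partners, and with 50% reciprocal overlap all 12 (100%) counted as in one list only.

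Each of the 12 H1-10 OE regions lay wholly inside its Ctrl region, and both summits were 2 to 67 bp apart, with a median of 22 bp. The H1-10 OE regions were 265 to 463 bp wide (median 335.5 bp) and the Ctrl regions around them 809 to 1769 bp (median 1226.5 bp). Within the H1-10 OE list they were weak by fold: their folds ran from 2.48 to 5.88, and all 12 lay below the median of 5.91 of the list. With the list split into 3 equal classes by -log10 p, 7 of the 12 fell in the strongest, 3 in the middle and 2 in the weakest. Within the Ctrl list their partners were strong, with folds of 22.3 to 71.7 and a median of 50.3, against a median of 9.83 for the 780 others.

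The strongest by fold in H1-10 OE was chr19:4402402-4402864, with a fold of 5.88 and a Ctrl partner of fold 63.1. Next were chr19:10679762-10680113 with 5.63 and chr19:16221984-16222362 with 5.04, whose Ctrl partners had folds of 50.7 and 49.9. The lowest pair, chr19:10305175-10305603 and chr19:5978151-5978415 with folds of 2.48 and 2.63, lay in the Ctrl regions of fold 67.5 and 71.7, which ranked 5 and 3 in the Ctrl list on the arm. The partners of the folds 5.88, 5.63 and 5.04 ranked 6, 12 and 14 there. Both the highest and the lowest folds of H1-10 OE thus lay in strong Ctrl regions.

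The other 7 regions had H1-10 OE folds of 3.45 to 3.92. They lay at chr19:797707-798001, chr19:3036187-3036476, chr19:4328344-4328653, chr19:13029890-13030277, chr19:14117297-14117655, chr19:17448129-17448393 and chr19:18433926-18434244. Their Ctrl partners had folds of 35.5, 45.7, 22.3, 58.7, 31.6, 40.9 and 70.0 in that order. Every one of the 12 overlapped a Pol2S5p region in Ctrl, siCtrl and siE2F3. In the Pol2S5p list of H1-10 OE, 11 did so, the exception being chr19:4328344-4328653. In the rest of the genome 12.7% of the E2F3 H1-10 OE regions overlapped Pol2S5p of Ctrl, and 30.04% Pol2S5p of H1-10 OE. The sets are unlike: all 12 lay in E2F3 Ctrl regions, while 86.2% of those elsewhere met none. Pol2S5p regions are also denser on the arm, and the part of either was not tested. With equal numbers of the strongest peaks, the share of the 12 at Pol2S5p of Ctrl was 58.3%.

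Most strong E2F3 regions of Ctrl had no H1-10 OE counterpart. Among the 80 highest folds of the arm, 25.4 and above, 11 had an H1-10 OE region (13.75%, 7.85 to 22.97%), and in the rest of the genome 16.8% (15.3 to 18.4%) of the corresponding regions did. The most significant region found in Ctrl only, chr19:4908805-4910407, had the highest fold of the arm, 87.4. It was followed by chr19:14016583-14017388, chr19:13262104-13263150, chr19:14201021-14202385 and chr19:11265928-11266830, with folds of 72.9, 60.1, 61.1 and 49.4. These 5 each overlapped a region in all 4 Pol2S5p lists and none of H3K27me3. The plot of fold against width shows the 12 retained regions among the tall ones, with others of like height and width around them.

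**Figure D2:**
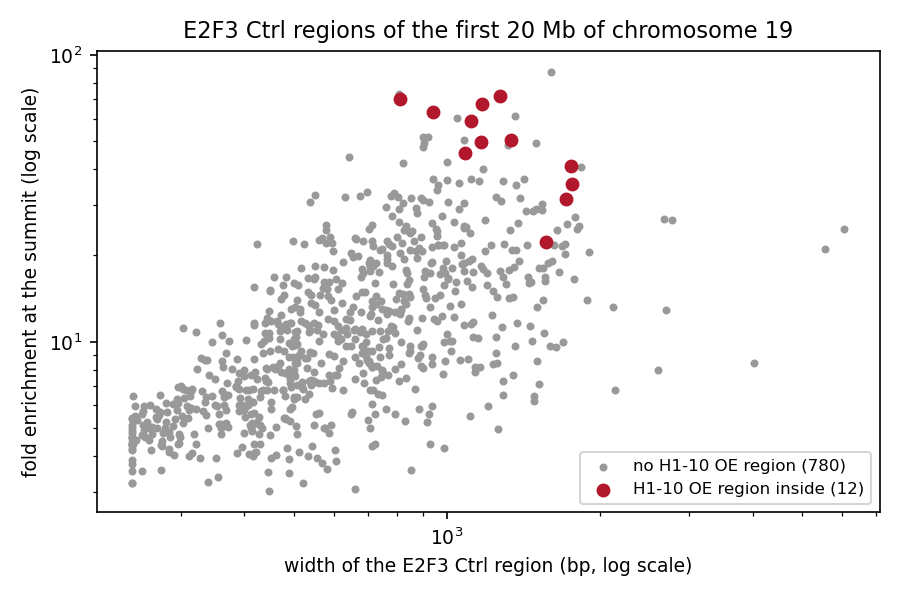
Each point is 1 of the 792 E2F3 Ctrl regions of the stretch, by its width in bp and its fold enrichment, both on log scales. The 12 regions with an H1-10 OE region inside, in red, have folds of 22.3 to 71.7, and 98 of the other 780 reach the lowest of these.

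The E2F3 regions of the arm were next set against Pol2S5p, to see whether they lay at initiating polymerase. Of the 792 Ctrl regions, 641 overlapped Pol2S5p of Ctrl (80.9%, 78.1 to 83.5%) and 662 that of siCtrl (83.6%, 80.8 to 86.0%). In the rest of the genome the shares were 67.5 and 70.2%, which is 13.4 points lower for each list (intervals 10.5 to 16.1 and 10.6 to 15.9). Pol2S5p regions of Ctrl cover 10.1% of the bases of the arm, more than in any other complete stretch, and the part of this density in the difference was not tested. Overlap with all 4 Pol2S5p lists was seen for 517 regions (65.3%, 61.9 to 68.5%), and with none for 62 (7.83%, 6.15 to 9.91%). Elsewhere 56.2% met all 4 and 21.6% met none.

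E2F3 folds were highest where all 4 Pol2S5p lists had a region. The median fold of E2F3 Ctrl regions was 11.5 at those that met all 4 Pol2S5p lists, and 6.43 at those that met none. The regions that met none were also narrow, with a median width of 406.5 bp against 745 bp. By length, 60.2% of the E2F3 Ctrl bases lay in all 4 Pol2S5p lists and 8.17% in none.

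Polymerase was present at most of the 780 Ctrl-only regions, in the H1-10 OE list too. Of these, 629 (80.6%, 77.7 to 83.3%) met Pol2S5p in Ctrl, and 567 (72.7%, 69.5 to 75.7%) met it under H1-10 OE. The shares in siCtrl and siE2F3 were 83.3 and 77.4%. In the rest of the genome the same kind of region met Pol2S5p of Ctrl in 67.2% and of H1-10 OE in 63.9%. Seen from the polymerase, 552 of the 1452 Pol2S5p Ctrl regions of the arm held an E2F3 Ctrl region (38.0%, 35.6 to 40.5%). They had a median fold of 13.1 and a median width of 1147.5 bp, against 4.24 and 583.5 bp for those without.

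Setting siE2F3 against siCtrl shows the state of Pol2S5p once E2F3 was targeted. On the arm the regions were about as many but narrower, and they covered less. The siE2F3 list held 2878 regions over 4417 kb and the siCtrl list 2824 over 5158 kb, a ratio of covered length of 0.856. Elsewhere in the genome the ratio was 0.886. Among the 142 stretches the ratio ranged from 0.801 to 1.497 with a median of 0.916, and the arm had the 19th lowest. The 3 stretches named above had ratios of 0.827, 0.900 and 0.848. Covered length lower in siE2F3 was also seen in these 3 stretches.

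Covered length was lower in 36 of the 40 windows and higher in 4, while 23 windows held more regions in siE2F3 and 15 fewer. The 3 windows with the largest difference downward, from 0.5 to 1, 11 to 11.5 and 3.5 to 4 Mb, dropped by 47.9, 45.7 and 41.9 kb. The 3 with the largest gain were those from 12 to 12.5 Mb (11.4 to 17.01 kb), from 9.5 to 10 Mb (81.6 to 86.8 kb) and from 9 to 9.5 Mb (15.1 to 15.5 kb). By ratio the windows ran from 0.741 to 1.49 with a median of 0.860, and the 4 blocks of 5 Mb from 0.843 to 0.867. Lower covered length was thus spread over the arm.

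**Figure D3:**
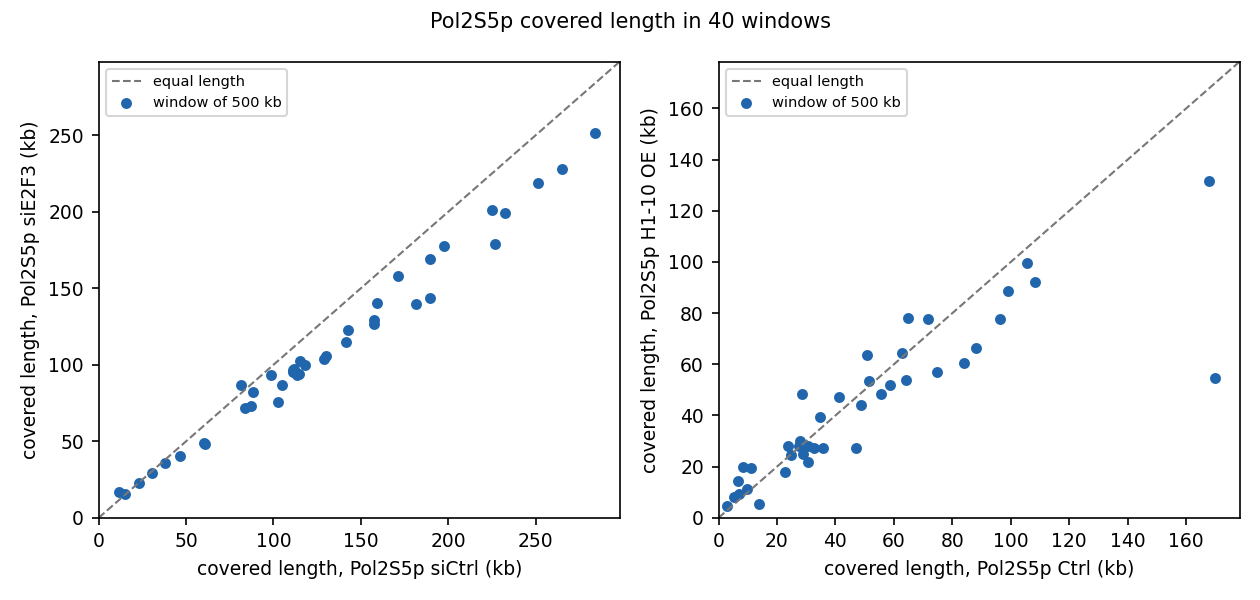
Covered length of Pol2S5p regions per window of 500 kb in the stretch, siE2F3 against siCtrl on the left and H1-10 OE against Ctrl on the right, in kb; each point is 1 of 40 windows and the dashed line marks equal length. On the left 36 of 40 points lie below the line; on the right 22 do, and 1 window, starting at 13 Mb, lies far below it at 170 kb for Ctrl against 54.5 kb for H1-10 OE.

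Most of the shorter length came from regions present in both lists. The net difference of -741 kb was made up of -480 kb at shared regions and -261 kb at regions found in one list only, which held 429 kb in siCtrl and 168 kb in siE2F3. Among the 1075 regions that met exactly 1 region of the other list and were met by no other, 726 (67.5%) were narrower in siE2F3. Their median width was 864 bp in siCtrl and 688 bp in siE2F3, and the median ratio was 0.869 (quartiles 0.646 and 1.06). Outside the arm 60.4% were narrower, with a median ratio of 0.935. A further 563 siCtrl regions (19.9%) met 2 or more siE2F3 regions, up to 7, and 280 siE2F3 regions (9.73%) met 2 or more siCtrl regions. Outside the arm these shares were 10.6 and 6.44%.

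Long Pol2S5p regions were often split. Of the 74 siCtrl regions of at least 10 kb, 59 met 2 or more siE2F3 regions and 15 met 1. A median of 95.1% of their length was still covered in siE2F3, with a lowest value of 68.5%. The longest, chr19:1983228-2015847 of 32.6 kb, was covered over 32.4 kb by 2 siE2F3 regions. The next, chr19:4428048-4458778 of 30.7 kb, was covered over 29.8 kb by 5. Then came chr19:19440328-19470703 (30.4 kb), chr19:16626780-16656860 (30.1 kb) and chr19:12806482-12835176 (28.7 kb), with 28.1, 29.03 and 28.5 kb covered in 5, 4 and 1 regions. In the Ctrl and H1-10 OE lists these 5 places were broken into 5 to 15 regions each. E2F3 Ctrl regions lay in 56 of the 74. A long region meets other regions more easily than a short one. The counts for the 74 were not made for long regions elsewhere, so they have no background here.

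Regions found in one list only were short and weak. Of the siCtrl regions, 833 had no siE2F3 region (29.5%, 27.8 to 31.2%), where the background over the whole genome was 30.6%. Of the siE2F3 regions, 403 had no siCtrl region (14.003%, 12.8 to 15.3%), where the background was 22.9%. The first share differed from the rest of the genome by -1.10 points (-2.79 to 0.634), and the second by -9.18 points (-10.4 to -7.84). The second share was uneven, at 9.39, 17.5, 14.5 and 16.1% in the blocks of 5 Mb in order. In the stretches of chromosomes 22, 1 and 9 named above it was 17.8, 21.5 and 22.1%. These values describe the comparison that led to the choice of the stretch and are no test of it. Since 25.8% of the arm lies in siCtrl regions, a region placed there meets one more easily, and the part of this in the second difference was not tested. With 50% reciprocal overlap the second difference turned to 6.77 points and the first to 5.63.

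Width and strength ordered both shares. Of the siCtrl regions under 300 bp, 67.7% (61.4 to 73.5%) were absent from siE2F3, and at greater widths the share was lower, at 7.69% from 1 to 2 kb. None of the 144 regions of 5 to 10 kb and of the 74 longer ones was absent. With the siCtrl list split into 3 equal classes by -log10 p, 60.4, 31.1 and 2.11% of the regions on the arm were in siCtrl only, in order of rising strength. The rest of the genome had 57.6, 31.9 and 2.14%. For siE2F3 the shares on the arm were 30.7, 12.96 and 0.598%, and in the rest of the genome 45.7, 22.6 and 1.13%. The latter differences were -15.0 points in the weakest class (-18.1 to -11.8), -9.68 in the middle class (-11.7 to -7.41) and -0.530 in the strongest (-0.880 to 0.180).

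**Figure D4:**
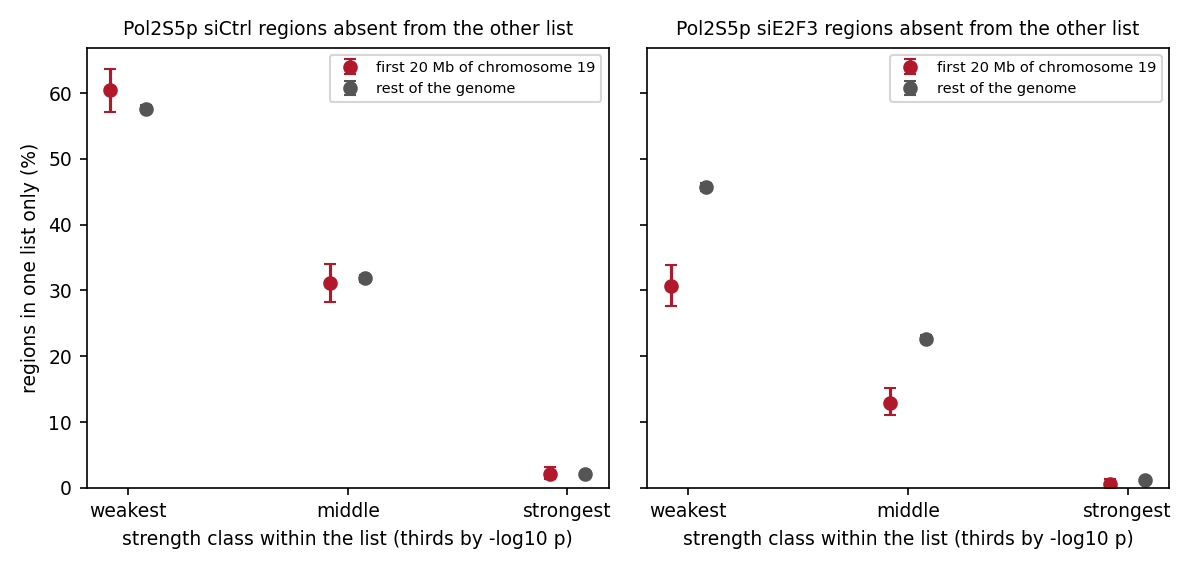
Share of Pol2S5p regions (%) with no overlap in the other list, for siCtrl regions on the left and siE2F3 regions on the right, by class, 3 of equal size in the list ranked on -log10 p; bars are 95% Wilson intervals. The arm and the rest of the genome lie close together for siCtrl, while for siE2F3 the arm has 30.7 and 12.96% in the weakest and middle classes against 45.7 and 22.6%.

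The 833 regions found in siCtrl only were more often seen in the other Pol2S5p lists than the 403 found in siE2F3 only. Of the former, 138 (16.6%, 14.2 to 19.2%) overlapped a region of Ctrl or H1-10 OE and 49 an E2F3 Ctrl region. Of the latter, 28 (6.95%, 4.85 to 9.86%) and 7 did so. The rest of the genome showed the same order, with 12.3 and 7.76% at Ctrl or H1-10 OE. An E2F3 Ctrl region was met by 2.67 and 0.860% there, against 5.88 and 1.74% on the arm. Shared siCtrl regions of the arm met Ctrl or H1-10 OE in 51.5% (49.3 to 53.7%), and those elsewhere in 49.2%. The median distance from a siCtrl only region to the nearest siE2F3 region was 1.04 kb, and from a siE2F3 only region to the nearest siCtrl region 0.595 kb. In the rest of the genome, where regions are less dense, these medians were 1.345 and 1.17 kb.

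The most significant region in siCtrl only, chr19:3285818-3286420 with a fold of 7.65, overlapped E2F3 and Pol2S5p of Ctrl. The next, chr19:588119-588612 with a fold of 8.57, and chr19:13162466-13162887 with 7.24, overlapped E2F3 of Ctrl and Pol2S5p of both Ctrl and H1-10 OE, and the first of these also an H3K27me3 region of H1-10 OE. The other two, chr19:2280326-2281261 and chr19:247046-247497, with folds of 8.60 and 8.03, were seen besides only in Pol2S5p of H1-10 OE. In siE2F3 only, the leading region was chr19:2948142-2948961 with a fold of 7.66, also seen in Pol2S5p of Ctrl and H1-10 OE. It was followed by chr19:14134425-14134793, chr19:3969499-3970103, chr19:3430474-3430926 and chr19:7862772-7863131, with folds of 6.42, 5.55, 5.64 and 5.71. None of these 5 overlapped an E2F3 region, and the last 2 overlapped no region of any other list.

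E2F3 Ctrl regions were then set against absence from siE2F3 within the same classes. They come from Ctrl cells, while the peak names place siCtrl and siE2F3 in H1-10 overexpressing cells. The E2F3 list of H1-10 OE had 12 regions on the arm, so E2F3 binding in the knockdown pair is not shown by these values. In the strongest class, 6 of 472 siCtrl regions with an E2F3 Ctrl region were absent from siE2F3 (1.27%, 0.584 to 2.75%), and 15 of 523 without (2.87%, 1.75 to 4.68%). In the middle class the counts were 22 of 55 (40%, 28.1 to 53.2%) and 289 of 945 (30.6%, 27.7 to 33.6%), and in the weakest 21 of 32 (65.6%, 48.3 to 79.6%) and 480 of 797 (60.2%, 56.8 to 63.6%). The differences were -1.60 points (-3.53 to 0.256), 9.42 points (-2.84 to 22.9) and 5.40 points (-12.2 to 19.8) in the same order. In the rest of the genome they were -2.67 points (-3.01 to -2.35), 0.959 points (-2.15 to 4.22) and 4.68 points (0.152 to 9.002). Each interval of the arm contains the difference found elsewhere in its class. By length, siCtrl regions with an E2F3 Ctrl region were covered in siE2F3 over 87.6% and those without over 68.0%. The rest of the genome gave 88.1 and 63.8%. This comparison was not split by class. On the arm the regions with E2F3 Ctrl were wider and stronger, with medians of 1809 bp and a fold of 11.9, against 671 bp and 4.65. The part of this was not tested.

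Pol2S5p was also compared under H1-10 overexpression. Of the 1452 Ctrl regions, 541 had no H1-10 OE region (37.3%, 34.8 to 39.8%, background 41.0%), and of the 1790 H1-10 OE regions 712 had no Ctrl region (39.8%, 37.5 to 42.1%, background 42.8%). The differences from the rest of the genome were -3.88 points (-6.38 to -1.31) and -3.21 points (-5.50 to -0.868). The first was -1.29 points, with an interval that includes 0, at a -log10 q of 5 or more. Both turned sign with 50% reciprocal overlap, to 0.744 (-1.83 to 3.25) and 3.08 (0.866 to 5.22). Covered length was 0.877 times that of Ctrl. It was lower in 22 windows and higher in 18, and 33 of the 40 windows held more regions in H1-10 OE.

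One block made a large part of the length difference. The window starting at 13 Mb held 170 kb of Pol2S5p in Ctrl, against 54.5 kb under H1-10 OE, a ratio of 0.321 and the lowest of the 40 windows. Without it the ratio over the stretch was 0.928 in place of 0.877. This window, and the block described next, were chosen after their values were seen.

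Within it, 4 adjoining Pol2S5p Ctrl regions of at least 10 kb spanned chr19:13106672-13219135, a distance of 112 kb. Over that span Pol2S5p covered 109.5 kb in Ctrl, 4.03 kb in H1-10 OE, 18.98 kb in siCtrl and 9.13 kb in siE2F3. E2F3 Ctrl had 16 regions there and H1-10 OE none, and no H3K27me3 region of either list lay in the span. The broad Pol2S5p signal was thus a feature of the Ctrl list and not of the other 3. Of the 20 long Ctrl regions of the arm, these 4 had 0 to 8.74% of their length covered in H1-10 OE, while the median of all 20 was 81.8%. With 1 library per group, a property of the Ctrl library and one of the Ctrl cells cannot be told apart here.

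H3K27me3, the Polycomb mark, was compared between Ctrl and H1-10 OE to see where silenced chromatin lay on the arm. The 52 Ctrl regions left 28 of 40 windows empty, and the 254 H1-10 OE regions left 8 empty. Among the 142 stretches this one still ranked 6 in Ctrl and 14 in H1-10 OE by number of regions. Of the Ctrl regions 21 had no H1-10 OE region (40.4%, 28.2 to 53.9%, background 77.6%), and of the H1-10 OE regions 238 had no Ctrl region (93.7%, 90.01 to 96.1%, background 97.2%). The first share was -38.0 points from the rest of the genome (-50.3 to -24.3), and with 50% reciprocal overlap it stood at 0.903 points (-9.01 to 4.83). The lists differ in length, with 2540 and 18395 regions in all, and the part of this in either share was not tested. With equal numbers of the strongest peaks the ratio of covered length on the arm was 1.91 in place of 4.38.

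A single window held much of the mark. From 1.5 to 2 Mb lay 25 of the 52 Ctrl regions, with 21.4 of 39.6 kb, and 12 of the 254 H1-10 OE regions, with 25.9 kb. Of those 25 Ctrl regions 17 were shared, and of the 27 elsewhere 14 (51.9%, 34.0 to 69.3%). The window was chosen after its values were seen. The strongest Ctrl region by significance, chr19:1754779-1758760 with a fold of 9.36, lay in it and wholly inside the longest region of the H1-10 OE list in the genome, chr19:1754745-1765046. That region was 10.3 kb long, had a fold of 13.1, met 4 Ctrl regions and overlapped no Pol2S5p region. Next to it, chr19:1746547-1753632 of 7.09 kb met 6 Ctrl regions.

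The other leading Ctrl regions were chr19:18899850-18900909, chr19:1748882-1749519, chr19:1751314-1752389 and chr19:1450133-1450586, with folds of 6.80, 7.56, 7.56 and 6.45. All 5 leading regions had an H1-10 OE region, and 4 of them touched an E2F3 Ctrl region. Among all 52 Ctrl regions, 11 overlapped an E2F3 Ctrl region (21.2%, 12.2 to 34.0%) and 36 (69.2%) had one within 5 kb. In the rest of the genome 8.00% (6.996 to 9.13%) overlapped one and 32.9% had one within 5 kb. Pol2S5p of Ctrl met 2 of the 52 (3.85%, 1.06 to 12.98%), and 0.683% (0.427 to 1.09%) in the rest of the genome. Regions of E2F3 Ctrl and of each Pol2S5p list are denser on the arm than in any other complete stretch. The part of this in these differences was not tested.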

How the data were processed

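Peak lists of 8 ChIP-seq libraries of 22Rv1 cells were used, 1 library per group, out of 22 samples; the other 14, which are 10 inputs and 4 libraries of H1-10 itself, were not analysed here. Sample labels gave the groups. Reads were processed with Bowtie, fastp and FastQC on hg19, per the submitters' processing notes. Tool versions, the peak caller, its threshold and read depth: not given in the sources used here. The authors called peaks per library. Their deposited lists give a score, a fold enrichment (a ratio to background) and -log10 p and -log10 q values per peak; no deposited -log10 q was below 1.30.

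Regions wholly inside chr19:1-20000000 were counted with Python 3.11.15 (numpy 2.4.6, pandas 2.3.3, scipy 1.17.1, matplotlib 3.10.9). A region was shared if it overlapped one of the other list by 1 bp, and overlaps were checked against bedtools 2.31.1 and tested on simulated data. Intervals are 95% Wilson and Newcombe intervals. Alternatives tried were an end at 15 Mb, merging within 1 kb, summits in place of regions, reciprocal overlap of 50%, lists trimmed to equal length by strength, and a stricter -log10 q (5 or more).

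Regions were named by rule: every E2F3 H1-10 OE region, the 5 highest by -log10 q in one list only for E2F3 Ctrl, siCtrl and siE2F3, the 5 longest siCtrl regions, the 5 highest H3K27me3 Ctrl regions, and the 3 windows with the largest loss and gain. Members and lists were chosen with earlier results of these data known. Planned gene lists were not used here, since gene positions on hg19 were not used.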

Additional observations from a re-analysis of the deposited data

How the results depend on the processing

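No paired analysis was possible because each group is 1 library. Of 138 alternatives, 89 counted as unchanged. A share did so if it stayed within the main interval, and a ratio of covered length if it kept direction and changed by at most 1.5 times. A difference did so if it kept its sign and its interval still included or still excluded 0. One whose sign turned also counted if both intervals included 0. By summits the siCtrl difference turned in this way, from -1.10 to 1.08 points (-0.747 to 2.93). Shares found in one list only, for siCtrl, siE2F3, Ctrl and H1-10 OE of Pol2S5p in this order, were 25.5, 12.7, 29.9 and 26.3% with -log10 q of at least 5, 59.1, 59.9, 62.8 and 69.8% with 50% reciprocal overlap, and 40.05, 22.4, 46.3 and 45.8% by summits. Merging gave 25.9% for siCtrl, 31.1% for Ctrl and 37.3% for H1-10 OE, and equal numbers gave 35.3% for H1-10 OE. For E2F3, equal numbers gave 92.7% for Ctrl and a covered ratio of 0.0231, and reciprocal overlap gave 100% for both lists. For H3K27me3, the Ctrl share was 27.3% with the stricter q and 94.2% with reciprocal overlap. The H1-10 OE share was 88.2% with the stricter q, 80.4% with equal numbers and 98.8% with reciprocal overlap, and the covered ratio with equal numbers was 1.91.

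Differences from the rest of the genome turned sign with reciprocal overlap, to 4.11 points for E2F3 H1-10 OE, 5.63 for siCtrl, 6.77 for siE2F3, 0.744 for Pol2S5p Ctrl, 3.08 for Pol2S5p H1-10 OE and 0.903 for H3K27me3 Ctrl. At this setting the intervals for E2F3 H1-10 OE (-20.1 to 4.74), Pol2S5p Ctrl and H3K27me3 Ctrl included 0. That setting asks for regions of like width; otherwise the cause was not tested. With it E2F3 Ctrl stood at 0.793, with an interval above 0, and H3K27me3 H1-10 OE at -0.266, with one that includes 0. For Pol2S5p Ctrl the interval included 0 at -1.29 (stricter q), -2.18 (summits), -2.79 (merging) and -2.92 (end at 15 Mb), and for Pol2S5p H1-10 OE at -2.56 (end at 15 Mb).

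E2F3 Ctrl regions met Pol2S5p Ctrl in 36.7% with reciprocal overlap and 77.8% by summits. They met siCtrl in 80.6% with the stricter q, 70.1% with equal numbers, 22.3% with reciprocal overlap and 79.4% by summits. For the 12 E2F3 H1-10 OE regions the shares at Pol2S5p Ctrl and siCtrl were 58.3 and 75% with equal numbers, and 0% for both with reciprocal overlap. Read depth is unknown, so weak regions absent from a list may be below its threshold.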
